A study of Mus musculus with 4 samples.

Results

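Hepcidin and the genes that take up, store and export iron were followed in mouse gastrocnemius, a fast muscle of the calf. The group holds 9 genes of the 23282 gene rows in the data. They are the hepcidin genes Hamp and Hamp2, the uptake genes Tfrc, Trf and Slc11a2, the ferritin genes Fth1 and Ftl1, the iron exporter Slc40a1 and the heme-degrading enzyme Hmox1. The members were selected on their values in these libraries, so every value below is a description. All the mice were male and of the CDF1 strain, a first-generation hybrid of BALB/c and DBA/2. The normal control mice had neither tumor nor exercise, and the normal exercise mice ran on a treadmill at high intensity. The cancer control mice received CT26 colorectal cancer cells by tail vein and did not run, and the cancer exercise mice received the same cells and ran. The labels give postnatal day 28 for every library, which is close to the age at which the methods say the mice were bought. The methods place tissue collection at the end of the experiment, so the mice were older than this when the muscle was taken. The design counts 10 mice in each of the 4 groups. The paper states in its results that the sequenced muscle came from a representative mouse of each group, so a library is taken here as 1 animal.

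Wherever 4 values stand in a row below, the healthy libraries come before the tumor-bearing ones, and within each the sedentary (control) library comes before the exercised one. There was 1 library per group, so no difference below has a replicate check, and no p-value is given. RNA was sequenced from the 3′ ends of transcripts with the QuantSeq method. The deposited value of a gene is the log2 of its normalized read count plus 1. The reads behind these values were rebuilt and summed to between 10647449 and 13226159 per library. All 8 skeletal muscle markers were present in every library and took 5.89% to 9.354% of the reads. Counting intervals are exact 95% Clopper-Pearson intervals, and they cover counting error only, since no molecular identifiers are named in the sources used here. A gene is called higher or lower below when its deposited log2 values differ by at least 1, which is 2-fold, and its normalized read count reaches 4 in at least 1 of the libraries compared.

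Hepcidin is a small peptide hormone, made mainly by hepatocytes, that binds the iron exporter ferroportin (Slc40a1) and leads to its removal from the cell surface. Its gene is switched on by bone morphogenetic proteins (BMPs) through SMAD factors and by interleukin 6 through STAT3, and erythroferrone lowers it when red cells are being made. Inside cells, iron regulatory proteins bind hairpins in messenger RNAs when iron is scarce. Binding at the 5′ end of ferritin and ferroportin messengers blocks their translation, and binding at the 3′ end of the transferrin receptor messenger (Tfrc) protects it from decay.

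The mouse carries a pair of hepcidin genes side by side. In the GRCm38 build with GENCODE M21 annotation, Hamp lies on the minus strand at chr7:30942368-30944032 and Hamp2 on the same strand at chr7:30922372-30924681, with 17686 bases between them. Their coding sequences of 249 bases are 93.6% identical, their 3′ untranslated regions 86.9% and their promoters, over 250 bases, 89.7%. The promoters are shown because these 2 closely similar windows lie before the RefSeq starts of genes that differed widely in read count. Both come from RefSeq on GRCm38.p6, minus strand, at chr7:30944030-30944279 for Hamp and chr7:30924182-30924431 for Hamp2. The Hamp2 window lies inside the GENCODE gene body, because the RefSeq start at 30924181 is downstream of the GENCODE start at 30924681. Positions below are counted from the RefSeq starts. Capitals mark the letters GGCGCC, which is the core of the BMP-responsive type of element, and TTCNNNGAA, which is the STAT type, each searched on both strands. The 2 motifs do not overlap each other.
Hamp: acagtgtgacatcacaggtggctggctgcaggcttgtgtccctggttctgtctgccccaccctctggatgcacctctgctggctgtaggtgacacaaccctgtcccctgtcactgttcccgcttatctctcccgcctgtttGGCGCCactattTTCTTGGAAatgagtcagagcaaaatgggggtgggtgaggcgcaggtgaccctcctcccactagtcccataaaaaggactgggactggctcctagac
Hamp2: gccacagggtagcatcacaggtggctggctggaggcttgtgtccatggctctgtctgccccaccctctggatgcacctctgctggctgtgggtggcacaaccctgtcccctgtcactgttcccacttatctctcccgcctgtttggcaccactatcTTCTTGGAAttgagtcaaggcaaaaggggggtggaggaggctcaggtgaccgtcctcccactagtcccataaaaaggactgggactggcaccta
The STAT type match stood 97 bases before the start of Hamp and 94 before the start of Hamp2. GGCGCC stood 109 bases before the start of Hamp. The aligned letters in Hamp2 are GGCACC, a change written G4A with positions counted from 1 at the first base of the box. Of 32851 promoter windows of the table, 9.59% held GGCGCC and 7.02% held TTCNNNGAA. These matches describe letters in a window and were not tied to any read count.

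The iron-responsive type of hairpin was searched in untranslated regions as a C, 5 bases of stem, the loop CAGTGN and 5 bases that pair with the stem. Such a run of 17 bases was found in 160 of 21877 genes, or 0.731%, and in 4 of the 9 members. They are shown because uptake and storage genes carry the same loop at opposite ends of the messenger. Capitals mark the loop, and the letters are from the GRCm38 reference.
Tfrc 3′ untranslated region, chr16:32631225-32631241: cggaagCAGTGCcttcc
Tfrc 3′ untranslated region, chr16:32631604-32631620: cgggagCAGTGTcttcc
Tfrc 3′ untranslated region, chr16:32631669-32631685: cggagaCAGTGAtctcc
Tfrc 3′ untranslated region, chr16:32631716-32631732: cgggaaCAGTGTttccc
Fth1 5′ untranslated region, chr19:9982738-9982754: cttcaaCAGTGCttgaa
Ftl1 5′ untranslated region, chr7:45459785-45459801, minus strand: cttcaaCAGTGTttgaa
Slc40a1 5′ untranslated region, chr1:45925471-45925487, minus strand: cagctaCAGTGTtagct
The other 5 members had no run of these letters in their annotated untranslated regions. The search takes only a stem of 5 paired bases in a row, so it would miss hairpins of another shape. It does not show that these members lack an iron-responsive hairpin.

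Hamp2 spanned the widest range of the 9 genes. Its normalized read counts were 52.15, 1929.82, 5366.37 and 1989.62, from normal control to cancer exercise. These rest on 49, 2381, 5011 and 1837 reads. The normal control library was the low one, and the other 3 libraries placed Hamp2 between the 93.6th and 97.9th percentile of the genes with reads, against the 33.9th percentile in the normal control. Exercise in healthy mice went with a log2 difference of 5.18 (counting interval 4.80 to 5.65). Tumor without exercise went with a difference of 6.66 (6.28 to 7.12), a ratio of 103 in scaled reads. Exercise in tumor-bearing mice had the opposite sign, with a log2 difference of -1.43 (-1.51 to -1.35). The exercised libraries with and without tumor were close, with a log2 difference of 0.04 and an interval from -0.04 to 0.13 that includes 0.

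Hamp, the form usually called hepcidin 1, was a gene of few reads. It had 6, 36, 64 and 8 reads in the 4 libraries. In normalized read counts these were 6.433, 29.17, 68.41 and 8.727. The order again put the cancer control library first and the normal control library last, but the cancer exercise library lay close to the normal control, and the 95% intervals of their shares of the library overlapped. Relative to normal control, Hamp was higher by 2.02 (0.93 to 3.73) with exercise and by 3.22 (2.22 to 4.92) with tumor. In cancer exercise the log2 difference was -2.84 (-4.26 to -1.92) from cancer control and -1.63 (-3.07 to -0.62) from normal exercise.

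The share of Hamp among the reads of both hepcidin genes was not constant. In the healthy libraries it was 10.9% (4.11% to 22.2%) without and 1.49% (1.05% to 2.06%) with exercise. The tumor-bearing libraries had 1.26% (0.973% to 1.61%) without and 0.434% (0.187% to 0.853%) with exercise. The normal control interval lay above those of the other 3 libraries, and the cancer exercise interval lay below them. Hamp2 took most of the hepcidin reads in every library.

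Near-identical sequence bears on how reads were divided between the hepcidin genes. In the last 300 aligned bases, stretches of 75 bases differed between Hamp and Hamp2 at 1 to 17 positions, with a median of 7, and no stretch was identical. The mice were not of the strain of the reference genome, and how the authors treated reads with more than 1 match is not given in the sources used here. The long noncoding gene Gm44662 runs over both genes on the opposite strand, and 8.41% of the 75-base stretches at the end of Hamp2 also lie in it. Strand use in counting was not stated either, so in those shared stretches reads of Hamp2 and of this antisense gene cannot be told apart.

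**Figure D1:**
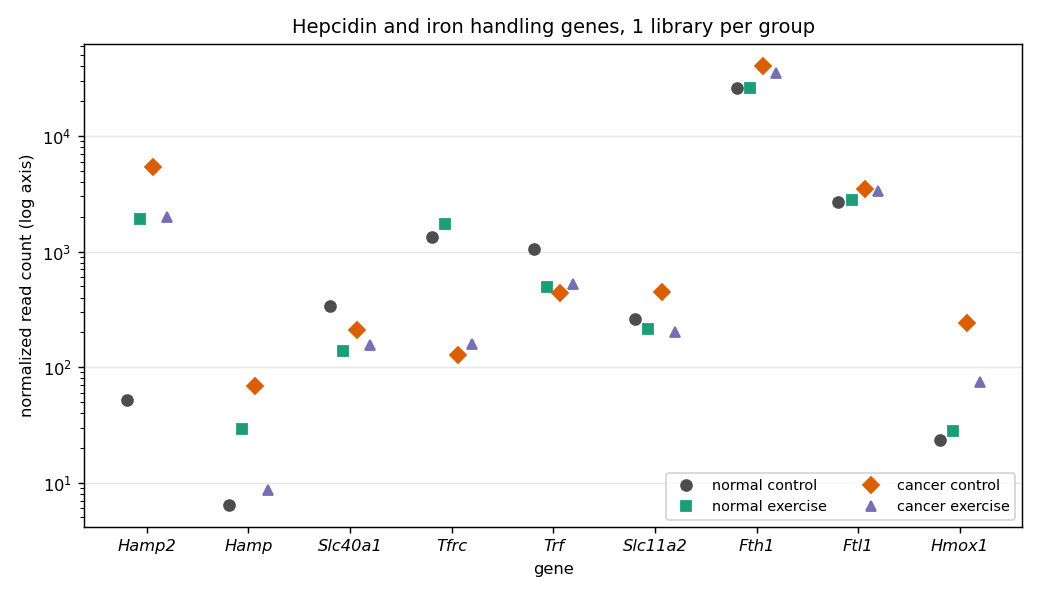
Normalized read count (log axis) of the 9 genes in the 4 libraries, with 1 point per library. Hamp2 runs from 52.15 to 5366.37 and Tfrc from 126.5 to 1747.62, while Fth1 and Ftl1 hardly spread.

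Markers of hepatocytes, the main source of hepcidin, followed it in only some of the comparisons. The normalized read counts of the 10 hepatocyte markers summed to 757.334, 302.792, 2433.56 and 302.769. With exercise in healthy mice the sum was lower where Hamp2 was higher, and 6 of the 8 markers tested were at least 2-fold lower and 0 higher. With tumor and no exercise, 8 of 10 markers were higher and 0 lower, led by Fgb, the fibrinogen beta chain, at 28 and 896 reads. With exercise in tumor-bearing mice all 10 markers were lower, with Alb, the gene of serum albumin, at 555 reads without and 71 with exercise. In both healthy libraries 8 of the 10 markers had reads, with Alb at 351 and 124, and Tat and Fga were at 0. The part of these markers in the hepcidin values was not tested.

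Heart muscle also makes hepcidin, and the sum of its 5 markers was 168.073, 304.69, 603.744 and 369.346. That order is the order of Hamp2, with a range of a few fold where Hamp2 had 101-fold. Most of the sum was Myh6, the alpha myosin of heart, at 118, 354, 476 and 267 reads, and its order is that of Myh6. Tnnt2 had 29, 22, 80 and 73 reads and Tnni3 8, 0, 8 and 0, neither in the order of Hamp2. In normal exercise against normal control 1 of the 3 heart markers tested was higher and 1 lower. The atrial marker Myl7 was at 0 reads in all 4 libraries and Nppa at 3, 0, 0 and 1. Pancreatic acinar markers summed to 4, 12, 14 and 5 reads, and Prss2, Cpa1 and Pnlip among them were at 0. Neutrophil markers summed to 108.75 and 202.691 in the healthy libraries and to 2718 and 2028.75 in the tumor-bearing ones. Macrophage markers summed to 4436.2 and 4337.53 in the healthy and to 7640.4 and 7164.97 in the tumor-bearing libraries. Not every marker followed that sum, and Csf1r was lower in the tumor-bearing libraries. Endothelial markers such as Pecam1, Cdh5 and Kdr summed to 1995, 3436, 2097 and 2197 reads, and the epithelial markers Epcam, Krt8, Krt18 and Krt19 to 17, 35, 44 and 43. Epcam had at most 1 read. The part of heart, neutrophil and macrophage RNA in the hepcidin values was not tested. In whole muscle, fewer cells of a type and less RNA per cell cannot be told apart.

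**Figure D2:**
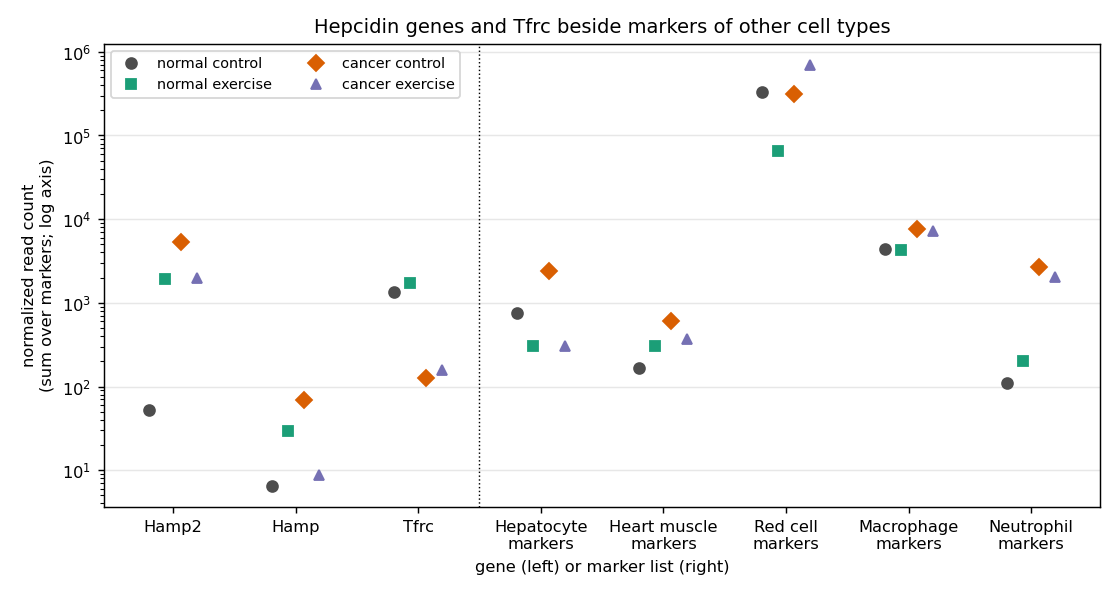
Normalized read count (log axis) of Hamp2, Hamp and Tfrc, left of the dotted line, and the summed normalized read count of 5 marker lists, right of it, with 1 point per library. Among healthy libraries the hepatocyte sum is lower with exercise (302.792) than without (757.334), whereas Hamp2 is higher.

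Tfrc (chr16:32608920-32632794), the transferrin receptor that brings iron into cells, separated the libraries by tumor. Its normalized read counts were 1329.73 and 1747.62 in the healthy libraries, against 126.5 and 159.2 in the tumor-bearing ones. Tfrc stood at the 91.7th and 93.9th percentile of the genes with reads in the healthy libraries and at the 51st and 54.7th in the tumor-bearing ones. The log2 difference for tumor against no tumor was -3.38 (-3.68 to -3.12) in sedentary and -3.45 (-3.71 to -3.21) in exercised mice. Exercise went with small differences of 0.39 (0.29 to 0.50) in healthy and 0.33 (-0.03 to 0.70) in tumor-bearing mice, neither of them 2-fold. These exercise differences of Tfrc were -0.06 apart on the log2 scale.

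Red cell precursors carry much transferrin receptor, and red cell markers were therefore summed. They took 2.737%, 0.6087%, 2.765% and 5.82% of the reads. Most of these reads came from the hemoglobin genes Hba-a1, Hbb-bs and Hbb-b1. Counts of the last pair lay close together in every library, for example 59726 for Hbb-bs against 58863 for Hbb-b1 in normal control. Those of Hbb-bt (16316) against Hbb-b2 (15436) were also close there. Whether the same reads were counted under both names of a pair was not tested, so the summed shares may be too high. Adipocyte markers took 0.1228%, 0.04642%, 0.03866% and 0.08093% of the reads, and the part of red cells and adipocytes in the Tfrc values was not tested.

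Trf encodes transferrin, the plasma protein that carries iron to its receptor, and was highest in the normal control library. Its normalized read counts were 1059.11, 493.6, 433.7 and 519.9. The other 3 libraries lay near each other, with an interval from -0.10 to 0.25 around the log2 difference of 0.08 between the exercised pair. Exercise in healthy mice went with a log2 difference of -1.10 (-1.25 to -0.95), which became -0.94 when libraries were scaled by their total count and was then no longer 2-fold. Tumor without exercise went with a difference of -1.29 (-1.46 to -1.12). Hepatocytes and adipocytes both make transferrin, and with exercise in healthy mice 6 of 8 tested hepatocyte markers and 3 of 5 adipocyte markers were lower. With tumor and no exercise 8 of 10 hepatocyte markers were higher and 5 of 5 adipocyte markers lower. The part of these cells in the Trf values was not tested. Gm20425 is annotated on the same strand across the 3′ end of Trf (chr9:103204001-103230444, minus strand), but 0 of the 226 stretches of 75 bases at that end lay in a transcript of another gene.

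Slc11a2 (chr15:100387898-100425072, minus strand), the divalent metal transporter DMT1 that moves iron out of endosomes, was highest in the cancer control library. Its normalized read counts were 261.7, 213.1, 448.8 and 201.5. The cancer control library stood apart, and the other 3 lay between 201.5 and 261.7. The log2 difference was -1.15 (-1.41 to -0.90) between cancer exercise and cancer control. Against normal control, cancer control was higher by 0.78 (0.55 to 1.01), short of 2-fold.

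The ferritin genes store iron, Fth1 (chr19:9980598-9985098) as the heavy chain with ferroxidase activity and Ftl1 (chr7:45457944-45459884, minus strand) as the light chain. Fth1 was among the most read genes in every library, at normalized read counts of 25815.4, 26248.5, 40341.1 and 34779.7. Ftl1 stood at 2688.27, 2810.26, 3498.66 and 3342.17. Both had their larger values in the tumor-bearing libraries, and neither reached 2-fold in any of the 4 comparisons. The differences between cancer control and normal control were 0.64 (0.62 to 0.67) on the log2 scale for Fth1 and 0.38 (0.30 to 0.46) for Ftl1. Exercise in healthy mice gave 0.02 for Fth1 and 0.06 for Ftl1, with intervals that include 0. The ratio of Fth1 to Ftl1 reads ranged from 9.34 to 11.5 over the libraries. Of the 75-base stretches at the 3′ end of Ftl1, 49.6% also lie in Ftl1-ps1 or Gm22133. Gm22133 is annotated inside Ftl1 on the same strand, so stretches shared with it are not those of a copy elsewhere. The part in Ftl1-ps1 was not counted apart, and reads of Ftl1 may be divided with that gene.

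The receptor and the store moved apart in the tumor-bearing libraries. The ratio of Tfrc to Fth1 reads was 0.0515 and 0.0666 in the healthy libraries and 0.00313 and 0.00458 in the tumor-bearing ones. These ratios are between numbers of reads at transcript ends, and no length scaling applies to them.

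Slc40a1 (chr1:45908068-45926523, minus strand) encodes ferroportin, the receptor of hepcidin and the iron exporter of the cell. Its normalized read counts were 334.9, 136.9, 208.8 and 155. The normal control library was the high one, as it was the low one for both hepcidin genes. The rest of the order was not reversed. Next highest for Slc40a1 was cancer control, the highest library for both hepcidin genes. These are messenger levels, and the part of hepcidin in the Slc40a1 values was not tested. The log2 difference was -1.28 (-1.57 to -1.02) in normal exercise and -0.68 (-0.95 to -0.42) in cancer control, both from normal control. Exercise in tumor-bearing mice gave -0.43 (-0.75 to -0.11), and the exercised libraries with and without tumor differed by 0.18 (-0.15 to 0.51). Macrophages express much ferroportin, and their marker sum was higher in the tumor-bearing libraries. In cancer control against normal control 5 of 11 macrophage markers were at least 2-fold higher and 0 lower. Csf1r went the other way, at normalized read counts of 848.8 and 1002.62 in the healthy and 525.8 and 786.4 in the tumor-bearing libraries. The part of macrophages in the Slc40a1 values was not tested.

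Hmox1 (chr8:75093621-75100589), heme oxygenase 1, breaks down heme and frees its iron. Its normalized read counts were 23.45, 28.22, 238.7 and 74.74. The tumor-bearing libraries were the high ones, with the sedentary one above the exercised one. With tumor Hmox1 was higher by 3.29 (2.72 to 4.05) in sedentary and by 1.37 (0.79 to 2.03) in exercised mice. Exercise in tumor-bearing mice went with a log2 difference of -1.66 (-2.09 to -1.28). The healthy libraries rested on 22 and 35 reads and differed by 0.26 (-0.53 to 1.12).

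**Figure D3:**
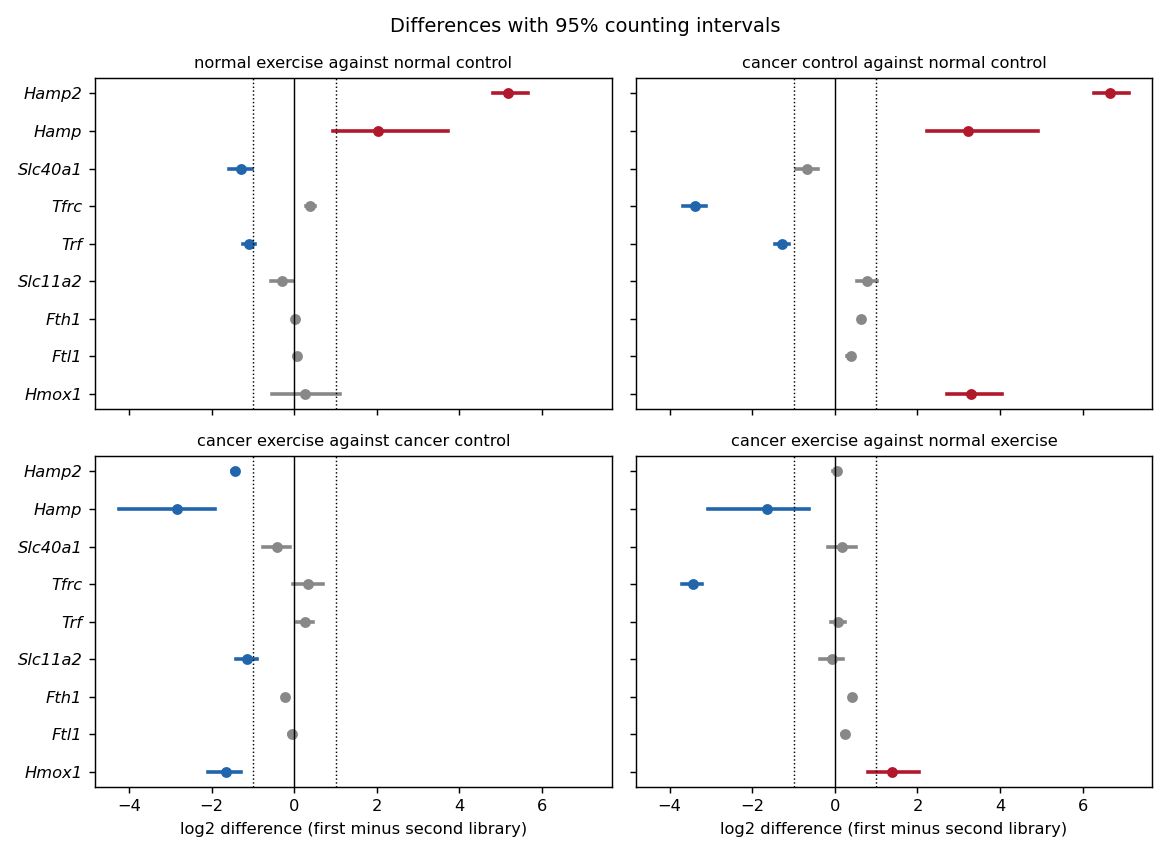
Log2 difference (first minus second library) of the 9 genes in 4 comparisons, with lines for the 95% counting interval. Red points are at least 2-fold higher, blue points at least 2-fold lower, and dotted lines mark 2-fold. Tfrc is at -3.38 and -3.45 in both comparisons with against without tumor.

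Counted over the 9 genes, normal exercise against normal control gave 2 higher, Hamp and Hamp2, and 2 lower, Trf and Slc40a1. Over the 14518 genes tested, 9.44% were higher and 12.1% lower. Cancer control against normal control gave 3 higher, Hamp, Hamp2 and Hmox1, and 2 lower, Tfrc and Trf, where 20.9% of all genes were higher and 24.2% lower. Cancer exercise against cancer control gave 0 higher and 4 lower, Hamp, Hamp2, Slc11a2 and Hmox1, where 15.6% of all genes were higher and 15.1% lower. Cancer exercise against normal exercise gave 1 higher, Hmox1, and 2 lower, Hamp and Tfrc, where 13.9% of all genes were higher and 16.3% lower. Because these genes were picked with their values known, nothing is read from the shares. The genes tested had medians of -0.01, -0.04, 0.01 and -0.03 on the log2 scale in these comparisons. Comparisons that share a library are not independent, and each of the 4 libraries stands in 2 of them.

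The upstream control of hepcidin was followed in 3 lists chosen for their known roles. Of 25 genes of the BMP and SMAD arm, 24 were tested in normal exercise against normal control, with 2 higher and 2 lower. With tumor and no exercise all 25 were tested, with 3 higher and 7 lower. Of the lower genes, Bmp6 went from 4 reads to 0 and Tmprss6 from 5 to 0. At a floor of 3 reads their bounds were 1.32-fold and 1.66-fold, under the 2-fold criterion. Hjv, the BMP coreceptor hemojuvelin, listed in the data as Hfe2, is a gene of liver and skeletal muscle. Its normalized read count was 6792.79 and 6643.75 in the healthy and 823.9 and 1529.73 in the tumor-bearing libraries. Its log2 difference was -3.04 in cancer control and -2.12 in cancer exercise from the healthy library with the same exercise. Like Tfrc, Hjv separated the libraries by tumor.

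Among ligands and antagonists of the same arm, Inhbb, the beta B subunit of activin, had 9, 26, 195 and 181 reads. Its log2 difference for tumor without exercise was 4.30. Grem1, a secreted BMP antagonist, had 0, 0, 36 and 0 reads, with cancer control at least 12.1-fold higher than in normal control with 3 reads as the floor of that library. Smad6, an inhibitory SMAD, had 45, 37, 29 and 12 reads, with a log2 difference of -1.19 between cancer exercise and cancer control. Inhbb was thus higher in both tumor-bearing libraries, and Grem1 was found in 1 library alone.

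Genes that sense iron or suppress hepcidin numbered 10, of which 8 were tested in cancer control against normal control. Of these 4 were higher and 0 lower, and in cancer exercise against cancer control 0 were higher and 4 lower. Erfe, the hormone erythroferrone, listed as Fam132b, had normalized read counts of 27.7, 16.05, 133.7 and 50.91. Fgl1, a protein secreted by liver that also lowers hepcidin, had 0 reads in both healthy libraries, 74 in cancer control and 19 in cancer exercise. Furin, the protease that cuts the hepcidin precursor, stood at 302.2, 486.4, 1566.23 and 510.3 in normalized read count. Erfe, Fgl1 and Furin, like both hepcidin genes, had their highest value in the cancer control library. Hfe and Twsg1 were not 2-fold different in any comparison.

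Of the 12 genes of the interleukin 6 and STAT3 arm, 8 were tested in normal exercise against normal control, with 0 higher and 0 lower. With tumor and no exercise 4 of 9 were higher and 0 lower. Among the 4 was Osm, which went from 0 to 5 reads. Against a floor of 3 reads its bound was 1.68-fold, under the 2-fold criterion. Socs3, the feedback inhibitor of the interleukin 6 pathway, stood at normalized read counts of 160.7 and 163.6 in the healthy libraries. In cancer control and cancer exercise it stood at 858.9 and 944.5. Stat3 itself stood at 1300.54, 1948.65, 4743.37 and 2596.67. Il6ra, the receptor of interleukin 6, stood at 114.9, 73.59, 337.3 and 331.5. Osmr, the receptor of oncostatin M, was at least 2-fold higher only between the exercised libraries, at 111 without and 297.8 with tumor, and Jak2 in none of the comparisons. The part of this arm in the hepcidin values was not tested.

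The further uptake list held 21 genes besides the members. In normal exercise against normal control 3 of 18 were higher and 0 lower, and these were Lcn2, Steap1 and Slc39a8. With tumor and no exercise 6 of 19 were higher and 2 lower. Lcn2, which binds iron-carrying siderophores and is abundant in neutrophils, had 5, 33, 1339 and 618 reads. Steap1, of a family of metal reductases, had 0, 25, 80 and 14 reads and Slc39a8, the metal importer ZIP8, had 0, 6, 25 and 11. For Steap1 the normal exercise value was at least 6.35-fold higher than in normal control, against a floor of 3 reads in that library, and for Slc39a8 the same bound was 1.52-fold, under the 2-fold criterion. Slc39a14, the importer ZIP14 of iron not bound to transferrin, had normalized read counts of 48.97 and 33.06 in the healthy and 393 and 238.2 in the tumor-bearing libraries. Steap3, the endosomal ferric reductase that works with the transferrin receptor, stood at 186.1, 167.9, 40.76 and 118.1. ZIP14 was thus high where Tfrc was low, and Steap3, like Tfrc, was lowest in cancer control.

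Export, ferritin turnover and storage were covered by 13 further genes in the data. With tumor and no exercise 3 of 10 were higher and 2 lower. Heph, a membrane ferroxidase that works with ferroportin, had 50 and 52 reads in the healthy libraries, 2 in cancer control and 24 in cancer exercise. Flvcr2, listed as Mfsd7c, had 21 and 43 reads in the healthy and 0 in both tumor-bearing libraries. Hpx, the plasma heme carrier hemopexin made by liver, had 3, 7, 90 and 6 reads, most in the library where hepatocyte markers were highest. In the healthy libraries it had 3 and 7 reads where the hepatocyte sum was 757.334 without and 302.792 with exercise. The part of hepatocytes in the Hpx values was not tested. Cd163, the macrophage receptor for hemoglobin bound to haptoglobin, stood at normalized read counts of 304.3 and 281.1 in the healthy and 613.8 and 845.9 in the tumor-bearing libraries. Abcg2, a porphyrin exporter, was 1.30 higher on the log2 scale in cancer control than in normal control.

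Of the 12 genes of iron regulatory protein and oxygen control, 1 was higher and 0 lower in normal exercise against normal control, and 2 were higher and 1 lower with tumor and no exercise. Ireb2, iron regulatory protein 2, stood at normalized read counts of 276.4, 224.5, 291.2 and 156 and was not 2-fold different in any comparison. Egln3, an oxygen sensing prolyl hydroxylase, stood at 142.6, 487.8, 3749.85 and 3452.87. From normal control its log2 difference was 1.77 with exercise and 4.71 with tumor. Zfp36, tristetraprolin, which destabilizes messenger RNAs, stood at 66, 37.94, 261.1 and 136.5, and its part in the Tfrc values was not tested. Egln1 had a log2 difference of -1.01 between cancer control and normal control, and Cdc14a was 2-fold different nowhere.

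Of the heme synthesis genes, 2 of 10 were lower and 0 higher in cancer control against normal control, and 4 of 11 were higher and 0 lower in cancer exercise against cancer control. Alas2, the erythroid form of the rate-limiting enzyme, stood at normalized read counts of 557.3, 125.5, 641.7 and 1443.15, and it belongs to the red cell marker list as well. Uros, an enzyme of the middle of the pathway, stood at 60.65, 88.45, 25.76 and 74.69, lowest in cancer control. The housekeeping form Alas1 did not differ by 2-fold anywhere.

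Of 8 heme breakdown genes besides Hmox1, 2 were higher and 1 lower with tumor and no exercise, and 1 was higher and 1 lower with exercise in tumor-bearing mice. Hmox2, the constitutive heme oxygenase, stood at 850, 744.5, 349.2 and 866.7 in normalized read count. It was lowest in the cancer control library, where Hmox1 was highest. Bach1, the repressor of Hmox1, stood at 208.5, 121.4, 429.2 and 273, highest in that same library. Maff, a small Maf partner of Bach1, stood at 37.29, 84.92, 1003.32 and 338. The biliverdin reductases Blvra and Blvrb did not differ by 2-fold in any comparison.

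Among 14 users of iron in muscle, 1 was higher and 4 lower in cancer control against normal control, where 24.2% of all genes were lower, and 9 were not called. In cancer exercise against cancer control 0 were lower. Mb, myoglobin, stood at normalized read counts of 28683.8, 13738.1, 7165.24 and 11330.1. Cycs, cytochrome c, stood at 9101.2, 5783.59, 2591.27 and 5321.91. Cyc1 and Ndufs1 of the respiratory chain followed with log2 differences of -1.76 and -1.11 in cancer control from normal control. The higher gene was Rrm2, the ribonucleotide reductase subunit of dividing cells, on 6 and 21 reads. Of the 27 genes of iron-sulfur cluster assembly, 1, 3, 2 and 0 were at least 2-fold different in the 4 comparisons, in the order used for the 9 genes. Nubp2, a scaffold of cytosolic assembly, was the widest, at 104.3 in normal control and 444.4 in cancer control, and Mms19, Fam96b and Fdxr had ranges of 1.12 to 1.19 on the log2 scale.

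Over all 153 genes of the 10 lists, 11 of 140 tested were higher and 6 lower in normal exercise against normal control, or 7.86% and 4.29%. In cancer control against normal control 27 of 142 were higher and 20 lower, or 19% and 14.1%. In cancer exercise against cancer control 13 of 139 were higher and 14 lower, or 9.35% and 10.1%. In cancer exercise against normal exercise 22 of 141 were higher and 11 lower, or 15.6% and 7.8%. The shares over all genes, given above, were 9.44% and 12.1%, 20.9% and 24.2%, 15.6% and 15.1%, and 13.9% and 16.3% in the same order. The lists as a whole were called no more often than genes at large, except for the higher calls between the exercised libraries. The counts of the lists keep genes with 0 reads in a library, such as Osm and Bmp6, even where the bound was under 2-fold.

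**Figure D4:**
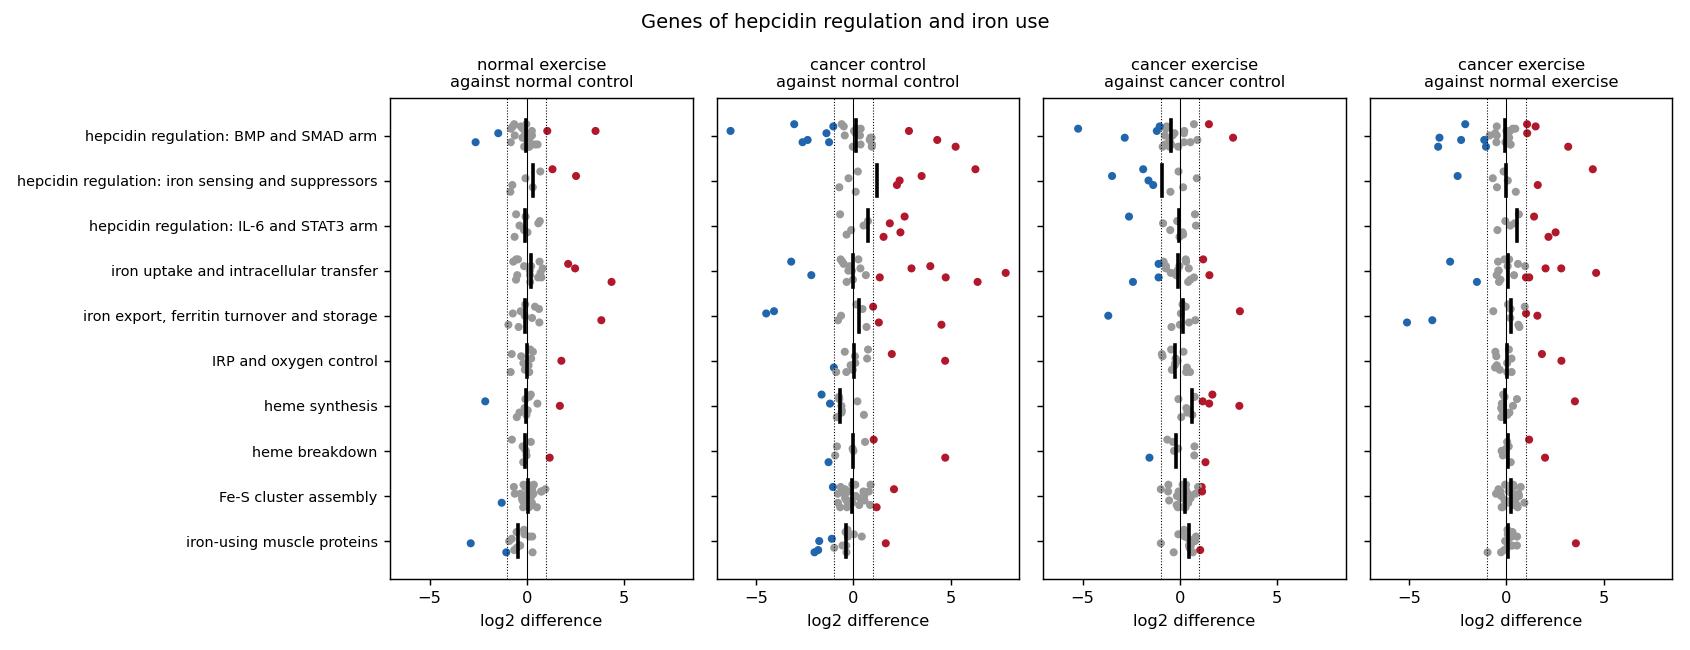
Log2 difference of each tested gene of 10 lists of hepcidin regulation and iron use in 4 comparisons, with genes as points and black bars for the list medians. Red points are at least 2-fold higher and blue points at least 2-fold lower. In cancer control against normal control the iron sensing and suppressor list has its median at 1.23.

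The genes whose 4 values most resembled those of a member were ranked among 13197 genes, by the root mean square difference of the centred log2 values over the 4 libraries. For Hamp they were Cytip, Cenph, Zswim4, Tnfrsf23 and Sh3gl3, at 0.19 to 0.32. For Tfrc they were Fam212a, Smox, Egflam, Slc37a4 and Tmem25, at 0.14 to 0.21. For Hamp2 they were Pih1d2, Ttc9, Tnfrsf26, Steap1 and Gm8013, at 0.49 to 0.63, and each of these had 0 reads in the normal control library. Hamp itself ranked 273rd in likeness to Hamp2, at 1.77. With 4 libraries a likeness of this kind is a description.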

How the data were processed

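Gastrocnemius RNA of 4 groups was sequenced with QuantSeq, 1 library per group. The authors aligned reads with Bowtie2 to mm10, counted them with Bedtools coverage and normalized them by a quantile method in edgeR, and deposited each gene as a log2 value, taken after 1 was added to its normalized read count. Versions, annotation, strand use and the handling of multiple matches are not given in the sources used here. Differences are between deposited log2 values. Whole reads were rebuilt by inverting the normalization (dispersion 0.339), and 100% of the values were returned within 0.0006. The rebuilding was checked on simulated data. Reads per library were 11269855, 13226159, 10647449 and 11026475, and 3 reads served as the floor of a count of 0. Genes were called at 2-fold with a normalized read count of 4, values taken from the study, and no test was possible. The paper does not say in how many libraries 4 must be reached, and 1 was enough here. This called more genes than the paper reports. In normal exercise against normal control 1371 were higher and 1750 lower, or 704 and 896 with 4 required in both libraries. Member calls do not depend on this, since the lowest member value was 6.433, for Hamp in normal control. The members and lists were chosen with earlier results of these data known. Named genes were all 9 members, the 5 genes of each list with the widest range among those reaching 16, the 3 highest markers of each cell type list, and the 5 genes most like Hamp, Hamp2 and Tfrc. Some genes that this rule names are not reported here. Other markers, list genes that make up a count, and Gm genes were named after their values were seen. Alternatives were other scalings, pseudocounts of 0.5 and 4, other minimums and folds of 1.5 and 4. Python 3.11.15, numpy 2.4.6, scipy 1.17.1 and pandas 2.3.3 were used.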

Additional observations from a re-analysis of the deposited data

Results flagged for a closer look

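Exercise went with opposite differences in tumor-bearing and in healthy mice, each at least 2-fold on deposited values, for several members, listed genes, leading markers and genes of like pattern. There was 1 library per group, so the difference between these effects was not tested. The exercise effect in tumor-bearing minus that in healthy mice, on the log2 scale, was -4.86 for Hamp and -6.61 for Hamp2. Among genes of the iron lists it was -3.21 for Lcn2, -2.73 for Maff and 3.31 for Alas2. It was -6.76 for Steap1 and -3.57 for Slc39a8, which had 0 reads in the normal control library, so both depend on the pseudocount. For Slc39a8 the healthy effect was at least 1.52-fold at a floor of 3 reads, which does not show 2-fold. Among markers it was 3.17 for Hba-a1, 3.69 for Hbb-bs and Hbb-b1, 2.85 for Cfd, -3.10 for S100a8 and -3.50 for Krt18. Krt18 rests on few reads, at 2, 16, 25 and 9. The values of Hbb-bs and Hbb-b1 may not be separate results, since their counts lay close together in every library. Genes ranked as most like a hepcidin gene share its pattern by that choice. They were Cytip at -4.39, Cenph at -4.54, Zswim4 at -4.19, Tnfrsf23 at -3.89, Sh3gl3 at -5.41 and Pih1d2 at -5.69, the last with 0 reads in the normal control library. Cenph, at 1, 6, 16 and 1 reads, and Sh3gl3, at 3, 17, 36 and 2, rest on few reads.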

How the results depend on the processing

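With 1 library per group, no library could be left out. No paired analysis was possible because each group had 1 library. The counts of members called stayed within 1.5 times of the reported ones in 36 of 40 alternative settings. With a fold of at least 1.5, 8 members were called in cancer control against normal control in place of 5. With a fold of at least 4, 1 was called in cancer exercise against cancer control in place of 4, 1 in cancer exercise against normal exercise in place of 3, and 2 in normal exercise against normal control in place of 4. Of 180 recomputed log2 differences of members, 169 stayed within their counting interval, 11 moved beyond it and 0 called values changed sign. Total count scaling moved the median of all genes by 0.16, 0.07, -0.07 and -0.16 in the 4 comparisons as ordered in the report. Under it Trf lost its call in normal exercise against normal control (-0.94), and the small differences of Hamp2 (-0.11) and Trf (-0.08) between the exercised libraries changed sign. Of 200 recounts of list genes called, 194 stayed within 1.5 times and 6 did not. Depth limits Hamp, on 6 to 64 reads, more than any other member.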
